A study of Mus musculus with 8 samples.

Results

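The genes described here are 10 genes of the exocrine pancreas, the tissue that surrounds the islets and makes and carries digestive juice: the acinar enzyme genes Cpa1, Cel, Ctrb1, Pnlip and Cela2a, the transcription factor genes Bhlha15, Rbpjl, Nr5a2 and Gata4, and the duct channel gene Cftr. They were chosen by name, as acinar and duct genes, from the 21887 protein-coding genes of the GRCm38.p6 annotation. All accessible regions (peaks) over each gene body and 25 kb on both sides were collected, and that stretch is called the gene's window below. The cells were MIN6, an established mouse insulinoma line, wild type in the labels and used as a model of the beta cell. Open chromatin was mapped by ATAC-seq, a method in which a transposase inserts adapters where nucleosomes leave DNA exposed, after 48 hours of transfection with the pcDNA 3 empty vector or with pGloMyc-Klf4, a plasmid expressing the zinc finger factor Klf4. The labels give 4 biological replicates for each plasmid. Transfection leaves some cells without plasmid, and the labels name no sort. The values are 2 merged peak lists, 1 for each plasmid, so there is no spread between libraries and no test between the plasmids, and the read depth behind a peak is unknown. The plasmids carry different names in the labels, so an effect of the vector and an effect of Klf4 cannot be told apart.

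Acinar cells and beta cells arise from the same pancreatic epithelium and share some of its transcription factors. In acinar cells the PTF1 complex, made of PTF1A, an E protein and RBPJL, binds an E-box next to a TGGGAA-type site in the promoters of digestive enzyme genes. BHLHA15 (MIST1) sets up the secretory apparatus, NR5A2 works with PTF1 on enzyme promoters, and GATA4 acts in the pancreatic progenitor and in acinar cells. CFTR is the chloride and bicarbonate channel of the duct epithelium. Beta cells do not normally express the enzyme genes.

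The sequence just upstream of these genes was examined first, in the RefSeq promoter table (build GRCm38.p6), which holds 250 bases before and 50 after each annotated start. Of the 10 genes, 9 had an entry, Nr5a2 with 2 starts, and Gata4 had none. The promoters of 4 enzyme genes, Cpa1, Cel, Ctrb1 and Cela2a, held both an E-box and TGGGAA, at any spacing, and had no peak in either list. In Cela2a the E-box lay at −218 and TGGGAA at −85, counted from the start, so they were not next to each other. The share of all promoters holding both was not counted. Shown as examples are Cel, with 4 E-box matches the most among them, and Cpa1, with 2. Capitals mark matches to the E-box CANCTG and to TGGGAA, on both strands.
Cpa1, chr6:30638968-30639267, plus strand: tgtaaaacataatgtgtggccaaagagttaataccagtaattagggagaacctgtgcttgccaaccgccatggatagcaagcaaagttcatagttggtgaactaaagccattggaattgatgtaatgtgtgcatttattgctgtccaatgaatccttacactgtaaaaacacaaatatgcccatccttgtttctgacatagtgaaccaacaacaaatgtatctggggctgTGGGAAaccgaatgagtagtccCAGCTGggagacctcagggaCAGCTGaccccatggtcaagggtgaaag
Cel, chr2:28563354-28563653, minus strand: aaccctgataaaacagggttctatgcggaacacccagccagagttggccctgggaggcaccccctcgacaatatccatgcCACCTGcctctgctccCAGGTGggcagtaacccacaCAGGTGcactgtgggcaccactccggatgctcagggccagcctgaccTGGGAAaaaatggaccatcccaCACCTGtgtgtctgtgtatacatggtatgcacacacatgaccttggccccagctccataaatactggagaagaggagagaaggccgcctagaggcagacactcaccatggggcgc
The promoters of Bhlha15, Rbpjl and Cftr are shown because a peak lay over them in 1 or both lists. Here capitals mark matches to CACCC, the core of the site that KLF factors bind, on either strand (GGGTG when read on the printed strand).
Bhlha15, chr5:144190036-144190335, plus strand: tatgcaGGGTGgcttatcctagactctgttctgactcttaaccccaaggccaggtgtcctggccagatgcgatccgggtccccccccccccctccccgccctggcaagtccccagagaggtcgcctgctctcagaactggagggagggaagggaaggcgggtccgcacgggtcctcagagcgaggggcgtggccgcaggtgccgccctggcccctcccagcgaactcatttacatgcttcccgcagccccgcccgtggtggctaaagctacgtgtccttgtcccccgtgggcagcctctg
Rbpjl, chr2:164402944-164403243, plus strand: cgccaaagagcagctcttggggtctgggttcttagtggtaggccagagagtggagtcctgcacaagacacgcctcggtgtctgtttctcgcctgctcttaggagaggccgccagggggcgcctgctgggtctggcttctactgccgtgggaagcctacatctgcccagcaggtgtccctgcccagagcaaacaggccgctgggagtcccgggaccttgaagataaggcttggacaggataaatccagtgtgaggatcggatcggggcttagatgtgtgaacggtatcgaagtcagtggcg
Cftr, chr6:18170437-18170736, plus strand: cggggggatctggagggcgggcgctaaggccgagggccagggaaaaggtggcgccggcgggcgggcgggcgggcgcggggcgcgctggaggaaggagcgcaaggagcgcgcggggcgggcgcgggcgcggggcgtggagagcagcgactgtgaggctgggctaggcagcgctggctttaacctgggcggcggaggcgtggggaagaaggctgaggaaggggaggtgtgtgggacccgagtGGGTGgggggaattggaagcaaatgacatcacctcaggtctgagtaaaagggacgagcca

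All 5 enzyme promoters held TGGGAA, which 25.6% of the 32851 promoters of the same length in the table held. An E-box was found in 4 of the 5, all but Pnlip, against 51.4% of all promoters. The KLF core CACCC was found in 7 of the 9 genes against 57.5%, and no CACCC match in a member's promoter shared bases with a match to another motif searched. Counted from the start, its first base lay at −10 in Cftr and at −244 in Bhlha15, and the Rbpjl promoter held none. The NR5A site CAAGGTCA was found in 1 of the 9 genes, Cel, against 1.56% of promoters, the HNF1-type letters GTTAAT in 3 (Cpa1, Ctrb1 and Nr5a2) against 7.1%, and the GATA site AGATAA in 3 (Pnlip, Rbpjl and Nr5a2) against 11.2%. Members were counted by gene, Nr5a2 if either of its promoters matched, while the shares over the table are by promoter. These matches describe the letters only. The promoters also differed in composition. Cftr had 31 CpG dinucleotides and 71.3% G and C, Bhlha15 17 and 66.7%, and Rbpjl 14 and 59.7%, while the enzyme promoters had 1 to 11 CpG. The median promoter of the table had 7 CpG and 52.7% G and C.

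No enzyme gene had a peak within 1 kb of its start in either list. With the empty vector 3 of the 10 genes had a peak there, Bhlha15, Rbpjl and Gata4, and with Klf4 5 did, with Nr5a2 and Cftr added. Of all protein-coding genes a start peak was found for 64.5% in the empty vector list and for 71.5% in the Klf4 list. For Gata4, whose strand was not taken from the files, either gene end counted. Of the 7 members without a start peak in the empty vector list 2 had one in the Klf4 list, against 21.6% of all protein-coding genes without one, which is a share close to that background. Over all members this was 2 of 10, against 7.68% of all genes. The labelled cell type was checked the same way. Of 10 beta cell markers, among them Ins1, Ins2, Pdx1 and Mafa, 9 had a start peak in both lists, and Slc2a2 had none within 1 kb in either.

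**Figure D1:**
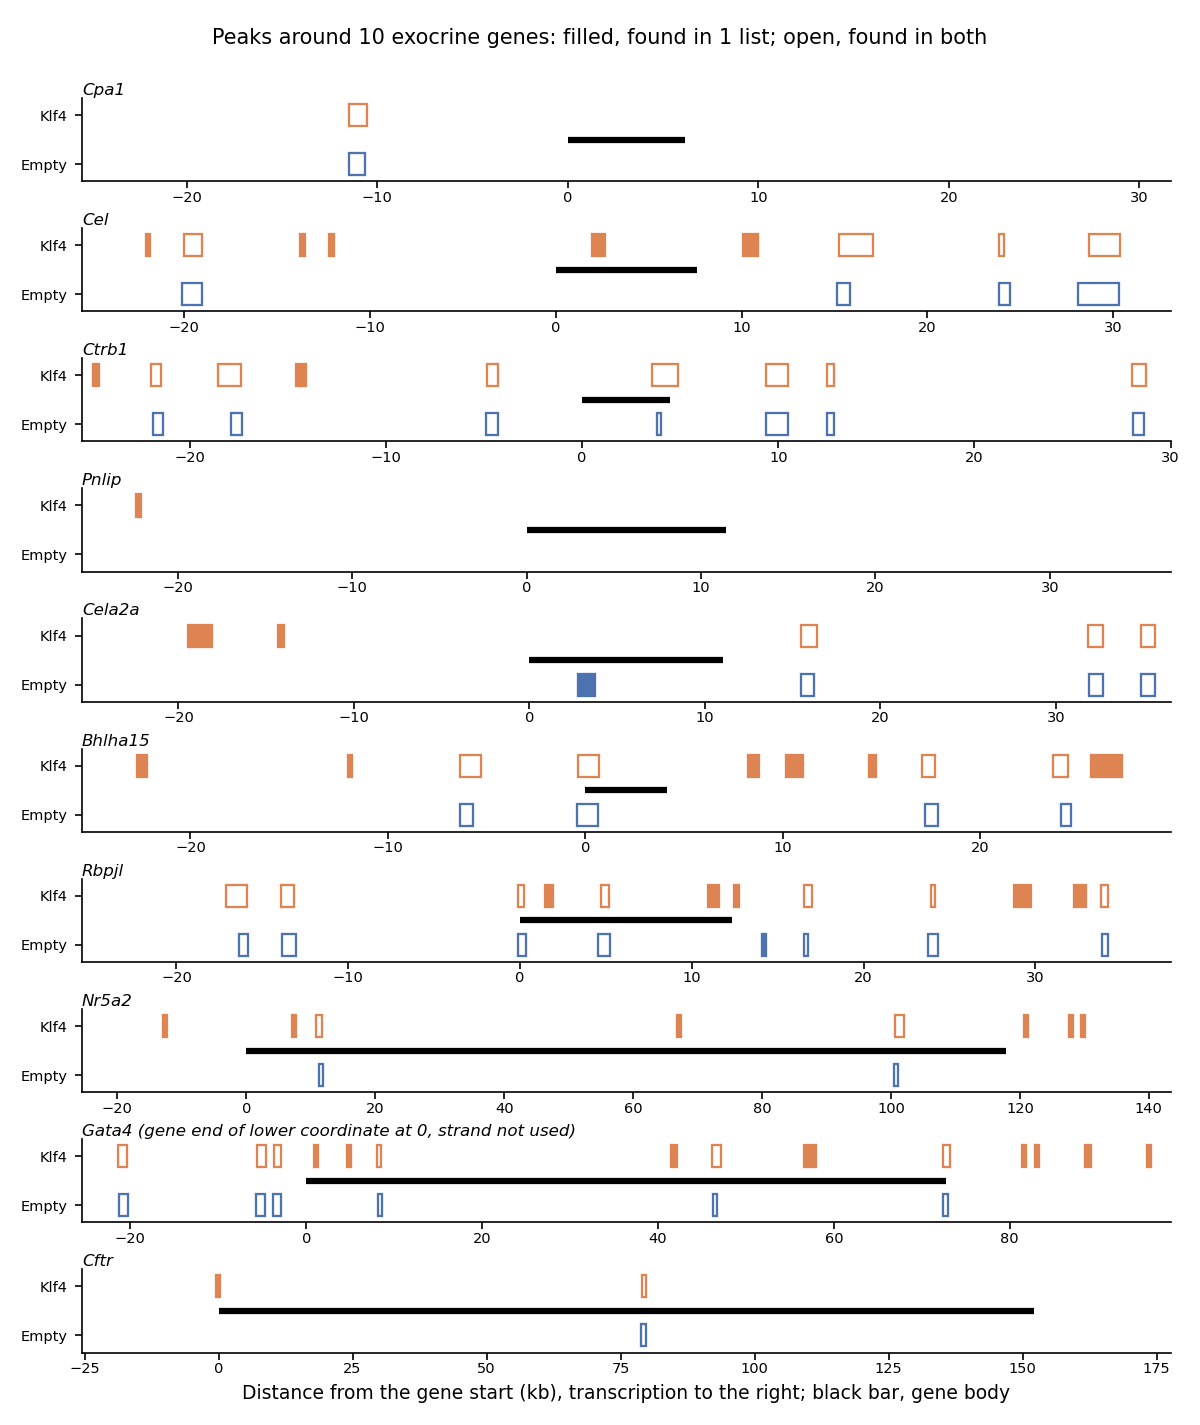
Peaks of both lists around each of the 10 genes, by distance from the gene start in kb, with the gene body in black and transcription to the right (for Gata4 the gene end of lower coordinate is at 0). Filled boxes are peaks found in 1 list and open boxes peaks found in both, and the narrowest peaks are drawn wider than they are. The Klf4 row holds 36 filled boxes and the empty vector row 2.

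Over the 10 windows the empty vector list had 37 peaks covering 24426 bp and the Klf4 list 71 peaks covering 47490 bp. Peak number was higher with Klf4 in 9 of the 10 genes and equal in Cpa1, where it was higher in 59.5% of all protein-coding genes. The ratios, 1.92 for peak number and 1.94 for covered length, compare with 1.28 and 1.28 over the whole lists. With both lists limited to a −log10 q of at least 20 there were 14 and 16 peaks and the covered length ratio was 1.16. With the strongest 20000 peaks of each list there were 9 and 9, and the ratio turned to 0.916. Of the 37 empty vector peaks, 35 were overlapped by at least 1 bp of a Klf4 peak (94.6%, 95% Wilson interval 82.3 to 98.5%), against 81.2% in the whole list. Of the 71 Klf4 peaks, 35 were overlapped by an empty vector peak and 36 were found with Klf4 alone (50.7%, interval 39.3 to 62.0%), against 36.7% in the whole list and 36.6% of the 100192 Klf4 peaks in the windows of any protein-coding gene. The intervals cover counting error over peaks only, and neighbouring peaks are not independent. Of the 10 genes, 9 had a Klf4-only peak in their window, all but Cpa1, where 72.3% of all protein-coding genes had at least 1. Empty-vector-only peaks lay in 2 windows, those of Cela2a and Rbpjl, where 49.7% of all genes had at least 1.

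Strength is given as −log10 q of the peak caller, which compares peaks within a list. Of the 36 Klf4-only peaks, 10 reached a −log10 q of 10. They were part of 28 Klf4 peaks at or above that level in the windows (35.7%, against 17.6% of the 52007 such peaks in the whole list). None of the 22 empty vector peaks at or above 10 was list-specific, against 1.14% of 46382 in the whole list. At 20 or more 4 of 16 Klf4 peaks were Klf4-only, 2 in the Gata4 window and 1 each in the windows of Ctrb1 and Rbpjl, against 7.24% of the whole list. The median gap from a Klf4-only peak to the nearest empty vector peak was 5831 bp, and 3 of the 36 lay within 1 kb of one, a share close to the 8.18% of Klf4-only peaks in the whole list.

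The strongest peaks in the windows belonged to neighbouring genes. At the starts of neighbours (for genes without a RefSeq promoter entry, at either end) lay 5 empty vector peaks with a median −log10 q of 91.7 and 6 Klf4 peaks with a median of 80.8, at Ralgds, Gtf3c5, Dnajc16, Casp9 and Neil2 in both lists and at Matn4 with Klf4 alone. Inside the exocrine genes but away from their starts the medians were 3.84 over 8 peaks and 6.96 over 14 peaks, without the Klf4 peak inside Rbpjl that was counted at the Matn4 start. Coverage of a window thus mixes a gene with its neighbourhood, and the peaks inside each gene are given separately below. In all 11 empty vector peaks and 20 Klf4 peaks touched a member's body, each time in 7 of the 10 genes. Bodies without a peak were those of Cpa1, Cel and Pnlip with the empty vector and of Cpa1, Pnlip and Cela2a with Klf4, 3 of 10 in each list, against 25.9% and 21.7% of all genes.

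**Figure D2:**
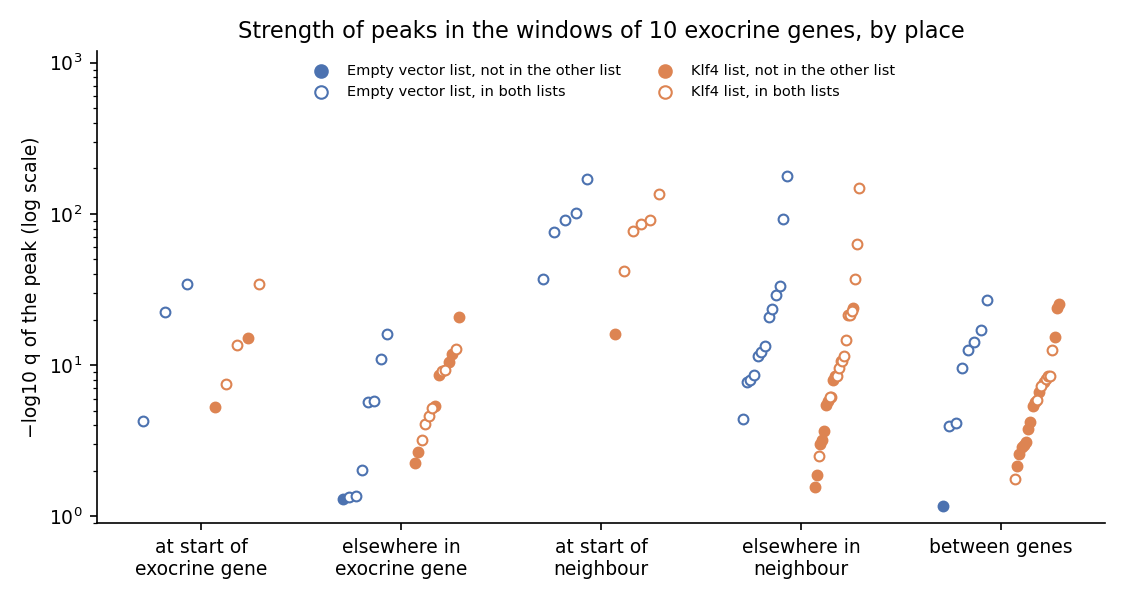
The −log10 q of each peak in the 10 windows (log scale) by where the peak lay, with the empty vector list in blue, the Klf4 list in orange and list-specific peaks filled. Peaks at the starts of neighbouring genes reached 170 with the empty vector and 135 with Klf4, while peaks in the exocrine genes away from any start stayed at or below 16.1 and 20.9.

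Among the enzyme genes, Pnlip and Cpa1 had the emptiest surroundings. Pnlip, the pancreatic triglyceride lipase (chr19:58670365-58681799), had no peak in its 61435 bp window with the empty vector and 1 weak peak with Klf4, chr19:58648018-58648209 (192 bp, −log10 q 5.4), which lay 22156 bp upstream of the start. Cpa1, carboxypeptidase A1 (chr6:30639218-30645361), had 1 peak in each list, 793 bp (empty vector) and 919 bp (Klf4) wide, 10662 bp upstream in the former, inside the neighbouring carboxypeptidase gene Cpa5 (chr6:30627764-30628556 with the empty vector). It was strong in both lists (−log10 q 93.2 and 62.8, within the top 6.74% and 6.92%). Neither enzyme gene body held a peak in either list.

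Cel, the bile salt-stimulated lipase gene (chr2:28555819-28563403), lies between Ralgds and Gtf3c5. Its window had 4 empty vector peaks covering 4575 bp and 9 Klf4 peaks covering 6901 bp, and all 4 empty vector peaks lay in the neighbours. The single peak inside Cel was Klf4-only, chr2:28560746-28561469 (724 bp, fold enrichment over local background 4.13, −log10 q 11.9), 1934 bp from the start within the gene and 12498 bp from the nearest empty vector peak. The annotation used has no exons, so whether it is intronic is not known.

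Ctrb1, chymotrypsinogen B1 (chr8:111686510-111691010), had 7 empty vector peaks covering 3928 bp and 9 Klf4 peaks covering 6550 bp. Every empty vector peak had a Klf4 counterpart, including a weak peak of 191 bp inside the gene with the empty vector (chr8:111687003-111687193, −log10 q 2.01). Its Klf4 counterpart was 1314 bp wide (chr8:111686122-111687435, −log10 q 5.17) and ran past the 3′ end, with 926 bp inside the gene. The strongest empty vector peak of the window, chr8:111695313-111695926, lay 4303 bp upstream of the start (−log10 q 27.1, and 12.5 for its Klf4 counterpart). The Klf4-only peak chr8:111705069-111705612 was the strongest Klf4 peak of the window (−log10 q 23.9), 14059 bp upstream and between genes.

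Cela2a, the elastase 2A gene (chr4:141814954-141826005), was the only member whose body coverage was lower with Klf4: 955 bp with the empty vector, in 1 list-specific peak that ranked 98100 of 100099 by strength (chr4:141822262-141823216, −log10 q 1.31), and none with Klf4. Its window had 4 peaks covering 3244 bp and 5 peaks covering 4313 bp. The 2 Klf4-only peaks lay over the chymotrypsin C locus Ctrc, which this annotation lists as a transcribed pseudogene (chr4:141839961-141840344, −log10 q 5.66, and chr4:141844084-141845470, −log10 q 7.67). The 3 peaks shared by the lists lay in Dnajc16 and Casp9.

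**Figure D3:**
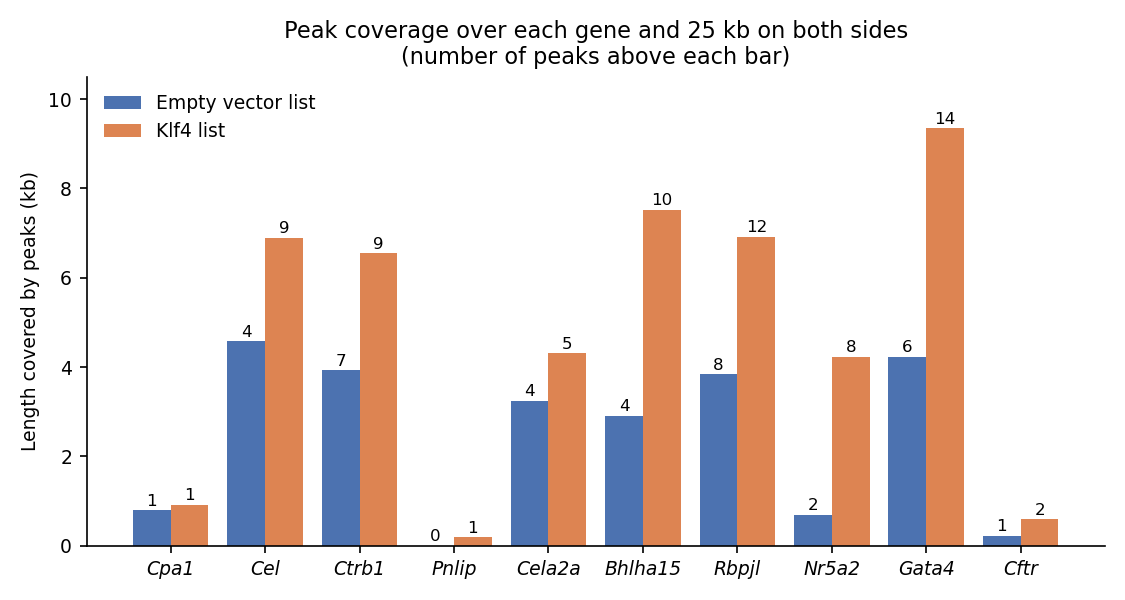
Length covered by peaks (kb) in the window of each gene, with the empty vector list in blue, the Klf4 list in orange and the number of peaks above each bar. The Klf4 bar is the higher in all 10 genes, from a difference of 126 bp at Cpa1 to 5121 bp at Gata4.

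Among the transcription factor genes covered length was higher with Klf4 in all 4, by 3075 to 5121 bp. Nr5a2, a nuclear receptor gene of 117887 bp (chr1:136842562-136960448), has no protein-coding neighbour in its window. It had 2 empty vector peaks covering 690 bp, both inside the gene and weak (−log10 q 5.81 and 1.37), and 8 Klf4 peaks covering 4227 bp. Both empty vector peaks were found again with Klf4, at 1329 and 1025 bp in place of 219 and 471 bp. Of the 6 Klf4-only peaks the strongest was chr1:136839140-136839833 (694 bp, fold enrichment 6.52, −log10 q 15.3), beyond the 3′ end of the gene. Another, chr1:136952943-136953171 (−log10 q 5.27), lay 459 bp downstream of the second annotated start. The promoter at that start held 3 CACCC matches, and no peak of either list lay within 1 kb of the first start. The other 4 had a −log10 q from 2.16 to 3.77.

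Gata4 (chr14:63198914-63271712) had the largest difference in covered length, with 6 empty vector peaks covering 4227 bp and 14 Klf4 peaks covering 9348 bp. All 6 empty vector peaks had a Klf4 counterpart. Of these, 3 lay below the gene, in Fdft1, at an end of Neil2 and between genes, and 2 of the 3 were the strongest of the window in both lists. Inside the gene the empty vector list had 3 peaks covering 1285 bp and the Klf4 list 7 peaks covering 4418 bp. The peak at the gene end of higher coordinate was 240 bp wide with the empty vector (chr14:63271503-63271742, −log10 q 4.29) and 792 bp with Klf4 (chr14:63271337-63272128, −log10 q 7.47). Of the 8 Klf4-only peaks, 4 lay inside the gene and 4 beyond that end, where the empty vector list had none within the window. The strongest were chr14:63280313-63280721 (409 bp, fold enrichment 8.70, −log10 q 25.2), 8601 bp beyond the end, and chr14:63240408-63241134 inside the gene (727 bp, −log10 q 20.9).

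At Bhlha15 and Rbpjl the start itself was accessible with both plasmids. The Bhlha15 gene (chr5:144190286-144194441) had a peak over its start of 1086 bp with the empty vector (chr5:144189847-144190932, −log10 q 34.6) and of 1070 bp with Klf4 (chr5:144189916-144190985, −log10 q 34.4), which covered the whole promoter shown above. These were the strongest start peaks among the 10 genes in both lists, and no other peak touched the gene in either. The rest of the window went from 3 empty vector peaks to 9 Klf4 peaks. All 6 Klf4-only peaks lay inside the neighbours Lmtk2 and Tecpr1, with a −log10 q from 1.88 to 10.6. Counting only peaks whose nearest protein-coding gene was Bhlha15, the log2 ratio of covered length, Klf4 over empty vector, was −0.01 in place of 1.24.

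Rbpjl (chr2:164403081-164415448), which encodes the acinar-specific RBPJ paralogue, had 8 empty vector peaks covering 3842 bp and 12 Klf4 peaks covering 6917 bp. Its start peak was 435 bp wide with the empty vector (chr2:164402983-164403417, −log10 q 22.6) and 337 bp with Klf4 (chr2:164402974-164403310, −log10 q 13.6), and it also lies in the overlapping gene Matn4. A Klf4-only peak 1348 bp into Rbpjl, chr2:164404542-164404981 (−log10 q 16.0), sits at the start of Matn4, so the gene it belongs to is uncertain. A second one inside the gene, chr2:164414004-164414669, had a −log10 q of 8.57. The strongest Klf4-only peak of the window lay in the neighbour Sdc4 (chr2:164435309-164436001, −log10 q 23.9).

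Cftr (chr6:18170687-18322770), with 152084 bp the longest of the genes, had the lowest covered share among members with any peak in both lists, 0.108% and 0.295% of its window. The empty vector list had 1 peak of 218 bp deep inside the gene (chr6:18249869-18250086, −log10 q 5.67), found again with Klf4 (233 bp, −log10 q 3.2). The other Klf4 peak, chr6:18170396-18170759 (364 bp, fold enrichment 6.65, −log10 q 15.0), spanned the start and the whole promoter shown above. It was Klf4-only, and the nearest empty vector peak lay 79110 bp away. Of the 2974 promoters of protein-coding genes with at least as many CpG as that of Cftr, 95.6% had a peak within 1 kb of the start with the empty vector and 99.1% with Klf4. Among the 130 without an empty vector peak, 104 (80%) had a Klf4 peak, as Cftr did, against 20.2% of the 7595 promoters with fewer CpG.

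Each gene's covered length with Klf4 was divided by that with the empty vector, after 500 bp had been added to both, and the log2 was taken. The ratio was above 0 in all 10 genes, as covered length was higher with Klf4 in 67.8% of all protein-coding genes. Its median was 0.64 over the 10 genes and 0.21 over all genes (quartiles 0.00 and 0.55). The 5 enzyme genes lay between 0.13 (Cpa1) and 0.67 (Ctrb1), with Cela2a at 0.36, Pnlip at 0.47 and Cel at 0.54. Cftr was at 0.61. Of the transcription factor genes Rbpjl was at 0.77, Gata4 at 1.06, Bhlha15 at 1.24 and Nr5a2 at 1.99. The range of these 4 lay above that of the enzymes here but not in every setting. With lists of equal length Bhlha15 (0.61) and Rbpjl (0.64) were below Ctrb1 (0.67), and with 10 kb on both sides Cel (1.7) was above all of them but Nr5a2. With other strength limits or windows the sign turned for 7 of the 10 genes in at least 1 of 10 settings, all but Nr5a2, Gata4 and Cftr. A ratio of at least 2-fold higher was thus reached by 3 of the 10 genes, against 7.98% of all protein-coding genes, and none was 2-fold lower, against 0.251%. Among the 4 members with at most 1000 bp covered with the empty vector, Cpa1, Pnlip, Nr5a2 and Cftr, 1 reached 2-fold, against 12.5% of all such genes. Nr5a2 stood at percentile 99.1 of all genes, Bhlha15 at 95.5 and Gata4 at 93.1. When the Klf4 list was limited to its strongest peaks, as many as the empty vector list holds, only Nr5a2 stayed past 2-fold (1.74), with Gata4 at 0.91 and Bhlha15 at 0.61, and 4.83% of all genes did. At a −log10 q of at least 20 Nr5a2 had no peak left in either list. Over the 10 settings Nr5a2 was past 2-fold in 8, Gata4 in 4, Cel in 3 and Bhlha15 in 2. Ctrb1, Pnlip, Rbpjl and Cftr were past it in 1 each.

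**Figure D4:**
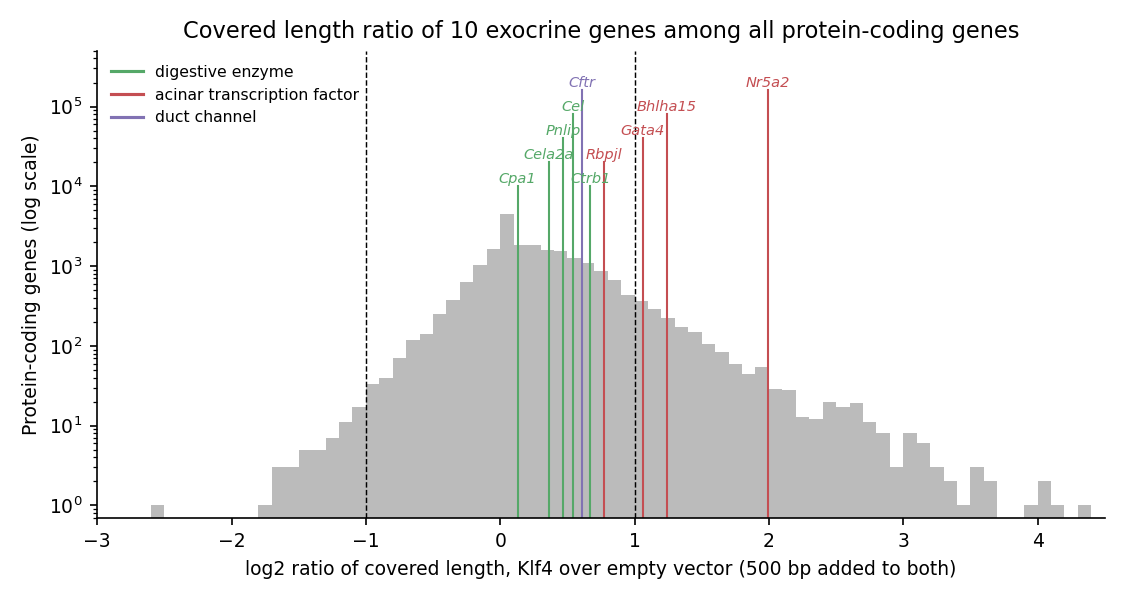
Number of protein-coding genes (grey, log scale) by log2 ratio of covered length, Klf4 over empty vector, with the 10 exocrine genes as vertical lines coloured by role and dashed lines at 2-fold. The 5 enzyme genes sit between 0.13 and 0.67, and 3 of the 4 transcription factor genes sit to the right of the upper dashed line.

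As a share of its window, the most covered gene with the empty vector was Cel (7.94%), followed by Ctrb1 (7.21%), Rbpjl (6.16%), Bhlha15 (5.37%), Cela2a (5.31%), Gata4 (3.44%), Cpa1 (1.41%), Nr5a2 (0.411%), Cftr (0.108%) and Pnlip with none. Without replicates, neighbours in this order cannot be told apart. The median of the 10 was 4.38%, and that of all protein-coding genes 4.37%. With Klf4 the order was led by Bhlha15 (13.9%), with Cel and Ctrb1 at 12.0% each, and the median of the 10 was 7.34% against 5.54% for all genes. Cel and Ctrb1, with no peak at their own starts, stood at percentiles 77.9 and 73.1 of all genes with the empty vector, while Cpa1 and Pnlip stood at 23.0 and 6.96.

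Other exocrine genes were examined by role. Of 25 further genes of digestive enzymes and secreted acinar proteins, 5 were at least 2-fold higher with Klf4 and none 2-fold lower, against 7.98% and 0.251% of all protein-coding genes, with a median log2 ratio of 0.50. With lists of equal length 3 were 2-fold higher, against 4.83%. The highest were Sycn, encoding the zymogen granule protein syncollin (1957 bp covered in the empty vector list, 7244 bp in the Klf4 list, log2 ratio 1.66), the kallikrein gene Klk1 (3276 and 11068 bp, 1.62) and the lipase-related gene Pnliprp2 (1098 and 4127 bp, 1.53), which lies near Pnlip. Also past 2-fold were Pnliprp1 (588 and 1855 bp, 1.11) and Cela1 (2549 and 5703 bp, 1.02). The windows of Pnliprp1 and Pnliprp2 overlap, so these genes are not separate stretches and the same peaks can count for both. By share of the window covered with Klf4 the list was led by Klk1 (20.4%), the phospholipase gene Pla2g1b (14.3%) and Sycn (14.1%). Klk1 belongs to a cluster of similar copies, where read placement is uncertain. Start peaks were found in 7 of the 25 with the empty vector and 11 with Klf4, against 64.5% and 71.5% of all genes. The 4 added, at Pnliprp2, Ctrc, Zg16 and Klk1, were 4 of the 18 without one before, a share close to the 21.6% of all genes. For Ctrc and Zg16 either gene end counted, and Ctrc is listed as a pseudogene while the background is of protein-coding genes. Of the 25 genes, 6 had no peak at all in the window with the empty vector, among them Cpb1, Reg1 and Amy2b, where 13.9% of all protein-coding genes had none.

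Of 7 further acinar transcription factor genes none was past 2-fold in either direction, against 7.98% of all genes higher and 0.251% lower. The median was 0.37. Start peaks were found in 6 of them in the empty vector list and in 7 in the Klf4 list, against 64.5% and 71.5% of all genes. The 1 gene added was Ptf1a, where 21.6% of all genes without one gained one. It encodes the DNA-binding subunit that defines PTF1 and had a Klf4-only peak of 1505 bp at the start (chr2:19444958-19446462, −log10 q 14.9). The gene was picked out after its values were seen. The largest covered shares with Klf4 were those of Tcf3, an E protein gene (17.6%), the Notch target Hes1 (16.0%) and Xbp1 (10.1%).

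Of 18 further duct genes, 3 were at least 2-fold higher and none 2-fold lower, against 7.98% and 0.251% of all genes, with a median log2 ratio of 0.48. Sox9, a transcription factor gene of duct and progenitor cells, had no peak in its window with the empty vector and 5 peaks covering 2834 bp with Klf4 (log2 ratio 2.74). The water channel gene Aqp1 had 1881 and 5378 bp (1.30), and the keratin gene Krt19 3461 and 8381 bp (1.16). The largest covered shares with Klf4 were those of the water channel gene Aqp5 (23.0%), the mucin gene Muc1 (20.4%) and the claudin gene Cldn4 (17.2%). Start peaks were found in 10 of the 18 duct genes with the empty vector and in 16 with Klf4, against 64.5% and 71.5% of all genes. The 6 added were Krt19, Sox9, Aqp1, Tspan8, Onecut1 and Cldn4, named after their values were seen. For Krt19 and Sox9 either gene end counted. They made up 6 of the 8 duct genes without a start peak in the empty vector list, where the share over all genes was 21.6%. Their strongest start peaks had a −log10 q of 31.6 at Aqp1, 18.9 at Krt19, 12.9 at Tspan8, 4.32 at Sox9, 3.09 at Onecut1 and 1.74 at Cldn4. At a −log10 q of at least 5 the counts were 9 and 13 of 18, against 60.4% and 67% of all genes. With lists of equal length they were 10 and 14, against 64.5% and 68.7%. Beside these, the median log2 ratio was 0.19 for 10 beta cell markers, 0.04 for 4 fibroblast markers and 0.48 for 3 blood cell markers. No beta cell marker was past 2-fold, against 7.98% of all genes. Start peaks were found at 1 fibroblast marker in the empty vector list (Col1a1) and at 2 in the Klf4 list (Col1a2 added). They were found at 1 blood cell marker in both (Cd68). The shares over all genes were 64.5% and 71.5%. Of these 7 fibroblast and blood cell genes, 1 was past 2-fold, Cd3e (log2 ratio 1.07), against 7.98% of all genes. Their part in the results was not tested.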

How the data were processed

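Per the labels, 8 ATAC-seq libraries of MIN6 cells were made, 4 for each plasmid, and groups and replicate numbers come from their titles. The submitters' processing notes name FastQC, Bowtie2, MACS2, DiffBind and the build mm10. Versions, options, read shifting and the treatment of duplicates are not given in the sources used here, nor is whether libraries were merged before peaks were called. The deposited fold enrichment of a peak is a ratio over local background, and its deposited −log10 q-value is its strength. The deposited −log10 p-value was used to rank peaks where lists were shortened. All are the authors' values. They rank or limit peaks within each list, and since the same limit can be met at unlike depth, counts past it in the 2 lists are a description. The labels name an ATAC kit and, for the library, an mRNA-seq kit. Library depth affects how many weak peaks are called.

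Peaks on chromosomes 1 to 19, X and Y were used, 100099 with the empty vector and 128538 with Klf4, which left out 165 and 188. Windows, gene ends and names come from the RefSeq table of GRCm38.p6 (mm10), and starts from its promoter table, with either gene end where it has no entry. A start peak touched 1 kb on either side of a start. Overlap meant at least 1 bp, and 500 bp were added to covered lengths. The 10 genes, the lists and the limit of 2-fold were chosen with earlier results of these data known. Named from each list were the 3 highest and 3 lowest genes past 2-fold, or those said to be named after their values were seen. Also named were the 3 with the largest covered share with Klf4. Genes with an added start peak and examples of genes without any peak were named too, after their values were seen. On simulated lists 1000 of 1000 moved peaks and all 200 covered lengths were recovered. Alternatives were limits on strength, width and list length, other windows, and 100 bp added. Python 3.11.15, numpy 2.4.6, pandas 2.3.3 and scipy 1.17.1 were used.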

Additional observations from a re-analysis of the deposited data

How the results depend on the processing

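No paired analysis was possible because each plasmid's libraries were merged into 1 list. For the same reason no replicate was left out. A count or ratio is said to move when it changes by more than 1.5 times, and a share when it leaves its 95% interval. A gene's log2 ratio is said to stay unless it changes sign or crosses 2-fold, so a smaller ratio that fell to 0 stayed. Some values could not change, such as start peaks under other windows, or empty vector counts where only the Klf4 list was cut. These are also counted as stayed. Of 234 values under alternatives, 150 stayed, 52 moved, 14 dropped below and 7 passed 2-fold, and 11 changed direction: the covered length ratio in 1 setting and 10 log2 ratios of single genes. The cause was not tested in any. Alternatives for the further exocrine gene lists were added after seeing the data. Below, limits of 5 and 20 are on −log10 q.

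Peak numbers in the windows (empty vector and Klf4) were 14 and 16 at 20, 9 and 9 with the strongest 20000 peaks of each list, 21 and 36 with 10 kb, 80 and 121 with 50 kb, 11 and 20 in gene bodies, and 15 and 33 for peaks nearest to a member. Klf4 peaks of at least 500 bp numbered 41. The covered length ratio was 1.16 at 20 and fell below 1, to 0.916, with the strongest 20000. The log2 ratios that turned negative were Ctrb1 (−0.09) and Rbpjl (−0.16) at 20, Cel (−0.29) and Bhlha15 (−0.52) with the strongest 20000, Cela2a (−0.61) with 10 kb, Cpa1 (−0.09) and Pnlip (−0.17) with 50 kb, Cela2a (−1.54) in gene bodies, and Cela2a (−0.72) and Bhlha15 (−0.01) with nearest peaks.

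The share of empty vector peaks found with Klf4 was 78.6% at 20 and 81.5% for peaks of at least 500 bp. The share of Klf4 peaks found with the empty vector was 68.8% at 20 (both lists limited), 88.9% with the strongest 20000, 36.4% for nearest peaks and 35.2% with an overlap of at least 50% of each peak.

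Genes at least 2-fold higher numbered 0 at 20 (against 2.91% of all genes) and with the strongest 20000 (2.69%), 1 with equal list lengths (4.83%) and with 50 kb (6.78%), and 5 with 100 bp added (adding Pnlip and Cftr, against 10.7% of all genes). In other settings the number stayed close but the genes changed. At 5 they were Rbpjl (1.01) and Nr5a2 (7.81% of all genes), with Gata4 at 0.95 and Bhlha15 at 0.91. With 10 kb (8.51%) and with nearest peaks they were Cel, Nr5a2 and Gata4. The share over all genes was not computed for nearest peaks. Among peaks of at least 500 bp they were Bhlha15 and Nr5a2 (9.7%). In gene bodies alone 4 were 2-fold higher (8.88%), the enzyme genes Cel (1.29) and Ctrb1 (1.05) with Nr5a2 and Gata4, 1 was 2-fold lower (0.306%), Cela2a, and Bhlha15 was at 0.07. Start peaks were found at 20 in 2 genes with the empty vector (Bhlha15 and Rbpjl) and in 1 with Klf4 (Bhlha15), so that the order of the lists turned, against 52.6% and 54% of all genes. They were found in 1 gene in each list with the strongest 20000 (47.8% and 48.8%), and in 1 (empty vector) and 2 (Klf4) genes for peaks of at least 500 bp (60.6% and 65.9%). In these 3 settings Bhlha15 had a start peak in both lists.

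Among the other lists, enzyme genes past 2-fold numbered 1 of 25 at 20 (against 2.91%) and 3 with equal list lengths (4.83%). Their start peaks numbered 4 (empty vector) and 11 (Klf4) at 5 (60.4% and 67%), and 3 and 3 at 20 (52.6% and 54%). At 5, 1 of 7 acinar transcription factor genes was past 2-fold (7.81%). At 20, 1 of 18 duct genes was past 2-fold (2.91%), and duct start peaks numbered 4 and 8 (52.6% and 54%).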
